A study of Mus musculus with 27 samples.

Results

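Receptors for the Fc part of antibodies, paired innate immune receptors and the adaptor proteins that carry their signal were followed through the in vitro differentiation of mouse embryonic stem cells (ESCs) into smooth muscle and blood. The group comprised 9 genes, which were the adaptors Tyrobp and Fcer1g, the activating receptors Fcgr1, Fcgr3 and Trem2, and the inhibitory receptors Fcgr2b, Lilrb4a, Pirb and Sirpa. They were chosen by name, because Lilrb4a and Tyrobp were lower after DOX, and their probes were found through the RefSeq accession of each probe. All 9 had a probe among the 37208 genes and transcripts on the array, Lilrb4a had 2 probes and each other gene had 1.

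The dnFOS ESC line carries a doxycycline (DOX)-inducible, Flag-tagged dominant-negative FOS at the Hprt locus of A2lox cells, and all cells in every group came from this line. The dominant-negative peptide pairs with JUN proteins and blocks AP-1 from DNA. FLK1+ cells, which hold the hemangioblast, were purified from embryoid bodies and placed in blast culture with VEGF and IL-6, with or without 1 µg/ml DOX. RNA came from fresh FLK1+ cells, from whole cultures after 5 h (named FLK1+ 5h), from whole cultures after 24 h (named d1 BC), and from 4 populations sorted at 48 h. These were smooth muscle cells (SM), early hemogenic endothelium (HE1, KIT+ TIE2+ CD41-), late hemogenic endothelium (HE2, KIT+ TIE2+ CD41+) and hematopoietic progenitors (HP, KIT+ TIE2- CD41+). Fresh FLK1+ cells were untreated, and each of the 6 other populations was measured untreated and with DOX. This gave 13 groups of 2 arrays each, with 3 for untreated SM, or 27 arrays in all. The labels do not say that replicates came from separate cultures, so that p-values measure the spread between these samples, which may be technical.

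As background, most of these receptors are best known from macrophages, neutrophils, mast cells and other myeloid cells. Activating receptors such as Fcgr1, Fcgr3 and Trem2 have short tails and signal through Fcer1g or Tyrobp, adaptors with activation motifs that recruit the kinase Syk once Src-family kinases have phosphorylated them. Inhibitory receptors such as Fcgr2b, Lilrb4a, Pirb and Sirpa carry inhibition motifs that recruit the phosphatases Ptpn6, Ptpn11 and Inpp5d and so oppose that signal. Sirpa binds Cd47 on other cells, Pirb binds MHC class I molecules, and Trem2 binds lipids and apolipoproteins.

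Promoter windows from 250 bases before to 50 bases after the transcription start were read from RefSeq (GRCm38.p6), which gave 7 windows for 6 of the genes. Fcgr3 had 2 overlapping windows, and Lilrb4a, Tyrobp and Sirpa were not in the table. The 4 windows below belong to the genes with the largest change from untreated SM to HP cells among those with a window, and capitals mark a match, on either strand, to any of 4 motifs. The motifs were TGACTCA (AP-1), GAGGAA (the core bound by PU.1 and related ETS factors), TGTGGT (RUNX) and TTGCNNAA (C/EBP).
Pirb, chr7:3720333-3720632, minus strand: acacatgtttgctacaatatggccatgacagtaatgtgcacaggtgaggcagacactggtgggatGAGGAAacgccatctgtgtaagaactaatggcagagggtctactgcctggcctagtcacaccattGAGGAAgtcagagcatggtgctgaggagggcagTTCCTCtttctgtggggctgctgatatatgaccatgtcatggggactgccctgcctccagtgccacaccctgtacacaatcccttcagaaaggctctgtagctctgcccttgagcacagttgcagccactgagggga
Fcer1g, chr1:171234300-171234599, minus strand: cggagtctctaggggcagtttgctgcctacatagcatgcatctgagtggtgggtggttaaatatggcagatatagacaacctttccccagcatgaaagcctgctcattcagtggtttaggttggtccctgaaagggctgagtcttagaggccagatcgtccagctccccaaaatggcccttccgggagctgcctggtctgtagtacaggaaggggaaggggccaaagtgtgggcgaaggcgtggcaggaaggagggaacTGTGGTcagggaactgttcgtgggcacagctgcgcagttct
Fcgr3, chr1:171059354-171059653, minus strand: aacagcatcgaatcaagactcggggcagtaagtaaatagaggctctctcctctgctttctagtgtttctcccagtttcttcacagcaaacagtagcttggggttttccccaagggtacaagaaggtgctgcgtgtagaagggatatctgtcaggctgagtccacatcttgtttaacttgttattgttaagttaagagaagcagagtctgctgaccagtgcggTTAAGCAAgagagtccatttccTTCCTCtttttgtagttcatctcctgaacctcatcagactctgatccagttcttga
Fcgr2b, chr1:170976022-170976321, minus strand: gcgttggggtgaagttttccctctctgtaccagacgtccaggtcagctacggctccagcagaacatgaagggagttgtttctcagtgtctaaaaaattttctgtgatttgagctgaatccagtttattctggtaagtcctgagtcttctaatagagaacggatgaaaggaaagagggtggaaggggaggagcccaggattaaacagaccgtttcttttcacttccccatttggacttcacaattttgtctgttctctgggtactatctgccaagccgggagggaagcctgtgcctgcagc
The letters GAGGAA occurred in windows of 4 of the 6 genes (Fcgr1, Fcgr3, Pirb and Trem2), against 28.3% of all 32851 RefSeq windows, and the Pirb window held 3 of them. TTGCNNAA occurred for Fcgr3 and Trem2, against 10.8% of all windows, and TGTGGT for Fcer1g, against 16.8%. TGACTCA occurred in 0 of the 7 windows, against 5.2% of all windows. These matches are letters in a short window and not measured sites.

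Arrays differed in brightness, with a 75th percentile of 73.2 to 639 intensity units, and 48.0% to 89.7% of probes were well above background. The highest share was that of untreated SM replicate 2, against 56.8% and 60.2% on the other untreated SM arrays. Hprt, the locus of the transgene, was higher with DOX on every array in all 6 populations, by log2 1.41 at 5 h to 3.63 in d1 BC, and passed the test in d1 BC (adjusted p = 0.0455, limma) and SM cells (adjusted p = 0.0231). The Fos probe differed by log2 -0.50 to 1.52 and passed in none, and whether it lies in the construct is not known here. From untreated SM to HP cells 4 of 5 smooth muscle markers fell and 5 of 5 blood progenitor markers rose, against 6.48% and 3.31% of all genes tested.

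Levels below are log2 signals relative to each array's own 75th percentile, which is set to 0, and differences are on the same log2 scale. Probes differ in brightness, so levels of different genes are not compared. A value not well above background is an upper bound, and such arrays are named as not detected.

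All 9 genes had their highest mean level in untreated HP cells, and for 7 of them both untreated HP arrays lay above every array of the group ranked next. The exceptions were Fcgr1 and Fcgr3, whose arrays overlapped those of untreated HE1 and untreated HE2 cells, respectively. Across the 13 group means the 36 pairs of genes correlated with Pearson r from 0.64 to 0.98 with a median of 0.81, as a description of means that share arrays and slides.

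**Figure D1:**
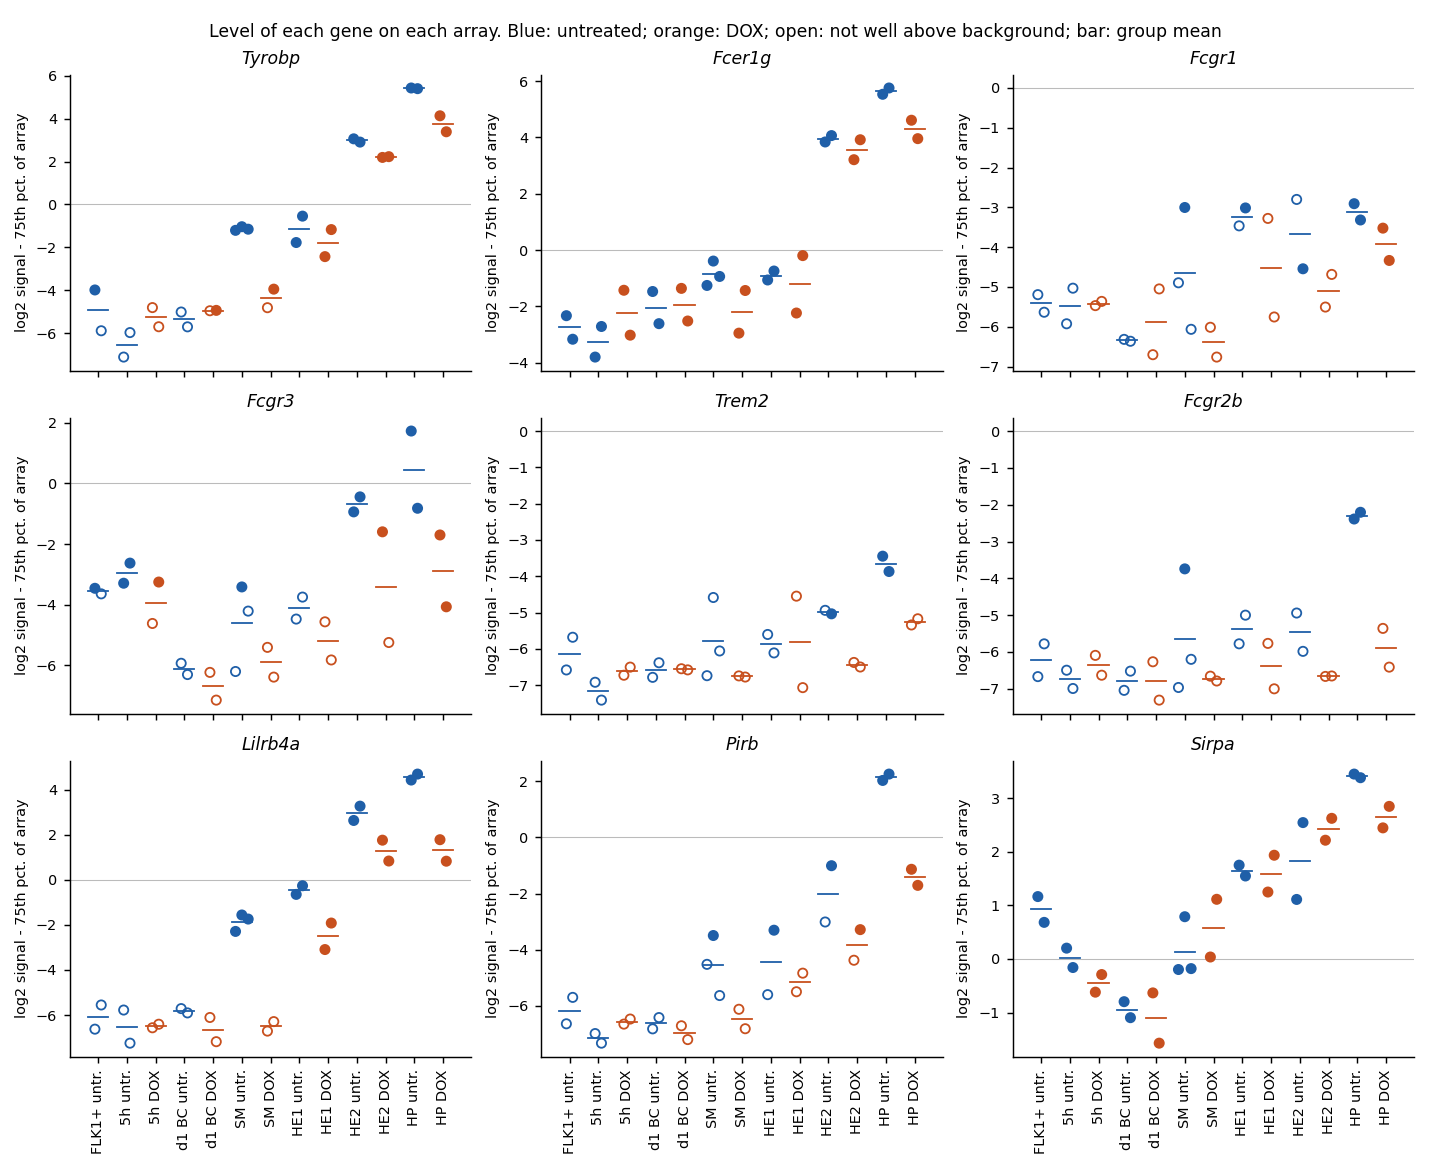
Level of each gene (log2, relative to the 75th percentile of each array) on each of the 27 arrays in 13 groups, with untreated arrays in blue, DOX arrays in orange, open circles for arrays not well above background and a bar at each group mean. Untreated HP cells have the highest mean in all 9 panels, and most early points of Lilrb4a, Pirb, Trem2 and Fcgr2b are open.

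The adaptors came first. Fcer1g, the gamma chain shared by Fc receptors, was detected on all 27 arrays. Its levels were -2.33 and -3.17 in FLK1+ cells, -1.48 and -2.62 in d1 BC, -1.07 and -0.75 in HE1, 3.84 and 4.07 in HE2, and 5.54 and 5.76 in HP cells, all untreated. Both HE2 arrays thus lay above every earlier array, and both HP arrays above every other group. Tyrobp, also known as DAP12, was detected on 18 of 27 arrays. It was not detected on either untreated d1 BC array and stood at -1.20, -1.03 and -1.15 in untreated SM, -1.77 and -0.54 in HE1, 3.06 and 2.90 in HE2 and 5.42 and 5.39 in HP cells. SM and HE1 arrays overlapped, and the step to HE2 and that to HP had no overlap.

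Of the activating receptors, Fcgr3, the low-affinity Fc-gamma receptor of myeloid and natural killer cells, was detected on 12 of 27 arrays. It was detected on 1 FLK1+ array (-3.46), on both untreated FLK1+ 5h arrays (-3.29 and -2.63), on 1 DOX array of FLK1+ 5h (-3.26) and on no d1 BC array. Its untreated levels were -0.94 and -0.44 in HE2 and 1.73 and -0.82 in HP cells, and 1 untreated SM (-3.42), 1 DOX-treated HE2 and both DOX-treated HP arrays detected it too. The untreated HP replicates of Fcgr3 were the farthest apart of any of the 9 genes in that group. Fcgr1, the high-affinity receptor for IgG, was detected on 7 arrays, at -2.91 and -3.32 in untreated HP cells and on 1 array each of untreated SM, HE1 and HE2 cells. The remaining 2 detections were the DOX arrays of HP cells. Trem2, which signals through Tyrobp in macrophages, osteoclasts and microglia, was detected on 3 arrays, at -3.45 and -3.87 in untreated HP cells and at -5.04 on 1 HE2 array.

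Among the inhibitory receptors, Lilrb4a, which restrains mast cells and monocytes, was detected on 15 arrays by 1 of its probes. Its brighter probe, used throughout, was not detected on any FLK1+, FLK1+ 5h or d1 BC array, and gave untreated levels of -2.29, -1.56 and -1.74 in SM, -0.65 and -0.27 in HE1, 2.63 and 3.26 in HE2 and 4.42 and 4.68 in HP cells. No neighbouring pair of these 4 untreated groups overlapped. The second, dimmer probe was detected on 1 DOX array of d1 BC, and gave -0.02 and 0.53 in untreated HE2 and 1.65 and 0.78 in untreated HP cells. Pirb stood at 2.03 and 2.26 in untreated HP cells and was detected on 1 array each of untreated SM (-3.50), HE1 (-3.31) and HE2 cells (-1.01), besides 1 DOX array of HE2 and both of HP cells. Fcgr2b, the inhibitory Fc-gamma receptor, was detected on both untreated HP arrays (-2.39 and -2.21) and on untreated SM replicate 2 (-3.74), and on no other array. Sirpa was detected on all 27 arrays, with untreated levels of 1.16 and 0.68 in FLK1+, -0.80 and -1.10 in d1 BC, 1.75 and 1.55 in HE1 and 3.45 and 3.38 in HP cells. The d1 BC arrays thus lay below those of FLK1+ cells, and the HP arrays above all others.

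The samples without DOX were then compared between stages, and between SM and HP cells, to ask where the levels of the receptors differ. SM and HP cells are separate populations sorted at the same 48 h and not stages of 1 path, so that rose and fell there mean higher and lower in HP cells. A gene passed the test at an adjusted p under 0.05 (limma, Benjamini-Hochberg over all genes tested in the comparison) and a change of at least 2-fold. It was tested where all arrays of 1 of the compared groups were well above background. Lilrb4a and Tyrobp were selected on values that include these untreated arrays and are given without a test, which leaves 7 genes.

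From untreated SM to HP cells, 6 of the 7 genes rose and Fcgr1 did not pass, beside 3.31% of the 25245 genes tested that rose. Where detection was required in both groups 2 genes, the adaptor Fcer1g and Sirpa, could be tested and both rose. The inhibitory receptor Pirb changed by log2 6.69 (SE 0.70, adjusted p = 8.26e-06, limma) and the adaptor Fcer1g by 6.51 (SE 0.66, adjusted p = 5.94e-06), which was 91.3-fold. Fcgr3 rose by 5.07 (SE 1.00, adjusted p = 0.00216), Fcgr2b by 3.34 (SE 0.71, adjusted p = 0.00393), Sirpa by 3.28 (SE 0.49, adjusted p = 0.0002) and Trem2 by 2.14 (SE 0.62, adjusted p = 0.0323), limma in each case. Trem2 was not detected in SM cells, so that its change is at least 1.79-fold on the scanner software's background, a bound not kept with normexp (0.26). Lilrb4a and Tyrobp differed in the same direction by 6.42 and 6.54. Fcgr1 differed by 1.54 (adjusted p = 0.353, limma), with 3.16 on the slide that held untreated SM replicate 3 and -0.31 on that of untreated SM replicate 2. Pirb, Fcgr3, Fcgr2b and Fcgr1 were detected on 1 of 3 SM arrays, so that most of their SM values are upper bounds. With Trem2 these 5 of the 7 genes were tested through the HP arrays alone, and a filter of this kind favours genes that are higher in HP cells, so the count of 6 is no support.

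The Trem2 call ended under 11 of 17 alternatives. It ended without HP replicate 1, HP replicate 2, SM replicate 1 or SM replicate 3 (adjusted p 0.0986 to 0.253, limma) and with the replicate block (adjusted p = 0.102), and that of Fcgr3 ended without HP replicate 1 (log2 3.79, adjusted p = 0.0966), while without HP replicate 2 Fcgr3 differed by 6.34. With the normexp background correction Trem2 differed by 0.26 (adjusted p = 0.945, limma) and Fcgr2b by 0.75 (adjusted p = 0.619), and the Fcgr2b call also ended in a fit of the 2 groups alone (adjusted p = 0.11). Without untreated SM replicate 2, the array with the highest share of detected probes, 6 genes rose, as with it.

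The steps of the hemogenic path followed. From d1 BC to HE1 cells 2 of the 7 genes could be tested, and Sirpa rose by log2 2.59 (SE 0.54, adjusted p = 0.0107, limma) while Fcer1g differed by 1.14 (adjusted p = 0.416), beside 2.05% of 23563 genes that rose. No slide held both groups, so that stage and slide cannot be told apart in this step. With the slide as a fixed block Sirpa did not pass (2.11, adjusted p = 0.115, limma), nor with median scaling (1.87, adjusted p = 0.135). The Sirpa call ended when any of the 4 arrays was left out (adjusted p 0.067 to 0.135, limma), at a change of 2.45 to 2.74. From HE1 to HE2 cells 3 could be tested and Fcer1g rose by 4.86 (SE 0.73, adjusted p = 0.00111, limma), 29.1-fold, beside 0.568% of 23436 genes that rose. That change was 4.91 and 4.82 within the 2 slides that held both groups. Fcgr3, not detected in HE1 cells and so tested through the HE2 arrays alone, was at least 7.80-fold higher in HE2 cells on the scanner software's background. It did not pass (log2 3.42, SE 1.10, adjusted p = 0.133, limma). It differed by 3.54 and 3.31 within the slides and passed with the slide as a random block (adjusted p = 0.0423, limma), but not as a fixed block (adjusted p = 0.0707). Fcgr3 also passed with quantile normalization (4.05, adjusted p = 0.0245, limma) and in the authors' processed values (2.46, adjusted p = 0.0233). With normexp it differed by 1.01 (adjusted p = 0.944, limma). The 7.80-fold bound was kept neither with normexp nor in the authors' values. Sirpa differed by 0.18 over this step. Lilrb4a was higher by 3.40 and Tyrobp by 4.14.

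From HE2 to HP cells all 7 genes could be tested and 0 passed in limma, with 4 at an unadjusted p under 0.05, beside 0.00395% of 25327 genes that rose. Pirb differed by log2 4.15 (SE 0.77, adjusted p = 0.0936, limma), with 5.04 and 3.26 within the slides. With the replicate number as a block, which for these populations is the slide, Pirb passed (adjusted p = 0.038, limma) and so 1 gene was called, but Pirb was detected on 1 of 2 HE2 arrays and entered through the HP arrays alone. Fcgr2b, not detected in HE2 cells, was at least 3.96-fold higher in HP cells (adjusted p = 0.235). Fcgr2b differed by 0.62 with normexp (adjusted p = 0.891) and by 1.70 in the authors' processed values (adjusted p = 0.00069), both less than that bound, and passed with quantile normalization (4.03, adjusted p = 2.78e-05) and median scaling (3.58, adjusted p = 0.0365). Over the same step Fcer1g differed by 1.69 (adjusted p = 0.736, limma). For 5 of the 7 genes the HP arrays lay above both HE2 arrays, beside 15.4% of all genes tested, but Fcgr2b, Trem2 and Pirb of these entered through the HP arrays alone and nothing is read from the count. Lilrb4a and Tyrobp were higher by 1.61 and 2.43.

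From FLK1+ to d1 BC, 2 of the 7 genes could be tested and 0 passed in limma, with 1 at an unadjusted p under 0.05, beside 4.92% of 22082 genes that passed in either direction. Sirpa differed by log2 -1.87 (SE 0.54, adjusted p = 0.0537, limma), and by -1.87 with the replicate block (adjusted p = 0.0487), which gives 1 call. From d1 BC to SM cells 0 of 2 passed, with 1 at an unadjusted p under 0.05, beside 0.268% of 23097 genes. Neither array of d1 BC detected Lilrb4a or Tyrobp, and untreated SM cells stood at least 7.59-fold and at least 12.0-fold higher on the scanner software's background. Those bounds were not kept with normexp, where Lilrb4a differed by log2 1.64 and Tyrobp by 2.18, nor in the authors' processed values (1.54 and 2.30).

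**Figure D2:**
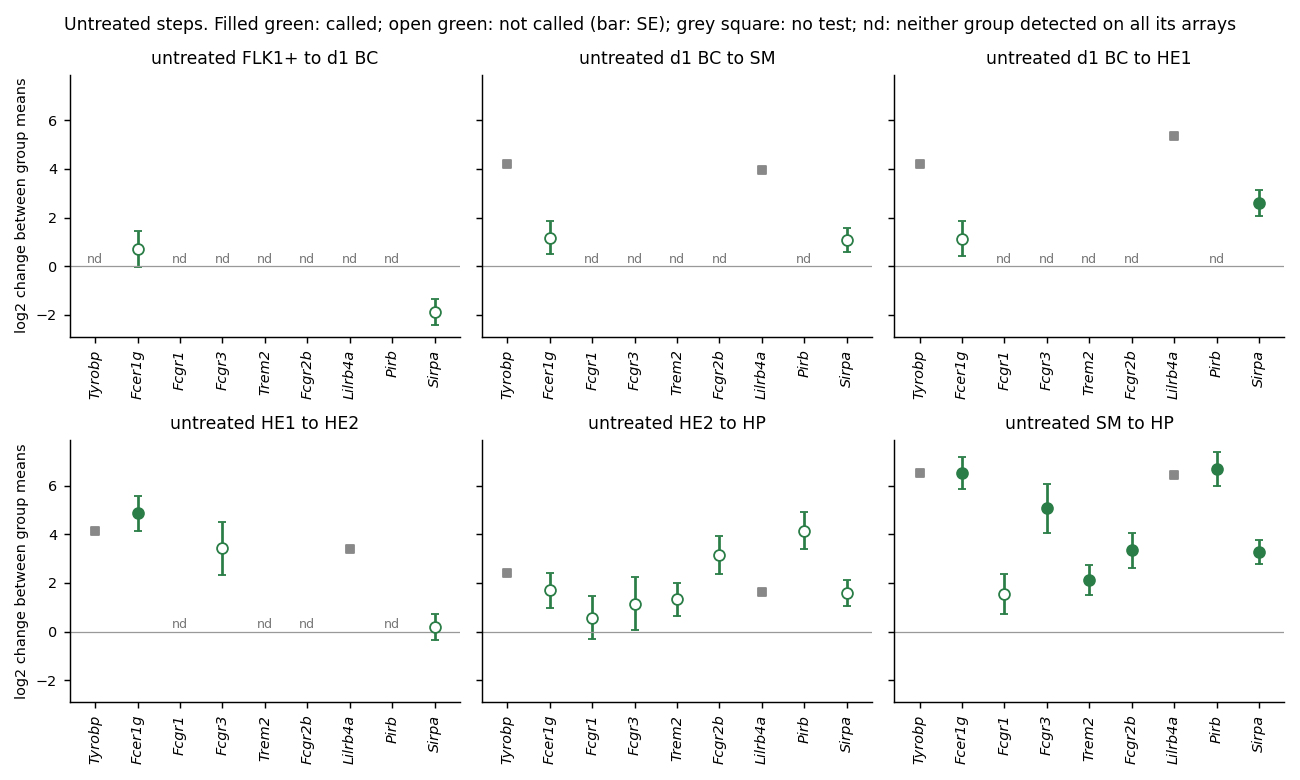
Change in log2 level between group means over 6 untreated steps for the 9 genes. Filled circles passed the test, open circles did not, bars are the SE of the fit, grey squares are Lilrb4a and Tyrobp with no test, and nd marks genes detected on all arrays of neither group. Fcer1g, detected on all arrays, changed by 6.51 from SM to HP and by 4.86 from HE1 to HE2.

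The signalling partners of these receptors were examined over the same steps from 4 lists, which held kinases and activating effectors, phosphatases and inhibitory effectors, ligands, and other Fc and paired receptors. From untreated SM to HP cells 11 of 24 kinases and activating effectors rose and 0 fell, with a list median of log2 1.95 against 0.14 over all genes tested, of which 3.31% rose and 6.48% fell. The largest changes were those of Vav1, an exchange factor for Rac proteins (6.44, SE 0.84, adjusted p = 5.81e-05, limma), and Rac2, the Rac protein of blood cells (5.87, SE 0.70, adjusted p = 3.02e-05, limma). Of the phosphatases and inhibitory effectors 5 of 10 rose and 0 fell (median 1.94), led by the lipid phosphatase Inpp5d (5.15, adjusted p = 6.26e-05, limma) and the docking protein Dok2 (4.78, adjusted p = 1.15e-06, limma). Of 26 other Fc and paired receptors tested 10 rose and 0 fell (median 2.23), led by the C-type lectin Clec4d (6.41, adjusted p = 4.90e-05, limma) and Lilr4b, a close relative of Lilrb4a (at least 39.3-fold, adjusted p = 6.47e-05, limma). The bounds of signalling genes, here and over the other steps, are on the scanner software's background, and their values under other settings are not given. Of the genes that rose, 3 of the 11 kinases and effectors, 0 of the 5 phosphatases and 6 of the 10 other receptors, with Clec4d and Lilr4b among them, were tested through the HP arrays alone, as were 14 of the 26 other receptors in all, so that the count and median of that list are no support. Of 10 ligands 2 fell and 0 rose (median -0.85), and these were App (-2.82, adjusted p = 0.000159, limma) and the matrix protein Fn1 (-2.36, adjusted p = 0.0154, limma).

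The other steps followed the same rule, and of the genes that rose 2 of 7 from HE1 to HE2 cells, 2 of 5 from d1 BC to HE1 cells and 3 of 5 from FLK1+ to d1 BC were tested through the later group alone, with Clec4d, Cd200r1, Lilr4b in HE1 and Thbs1 among them. From HE1 to HE2 cells 7 of 63 tested genes of the 4 lists rose and 1 fell, beside 0.568% and 2.08% of all genes tested. Those that rose included Dok2 (log2 3.81, adjusted p = 0.000256, limma), the tyrosine phosphatase Ptpn6 (3.61, adjusted p = 0.000649), Vav1 (3.72, adjusted p = 0.0338), Prkcd (2.59, adjusted p = 0.0284), Clec4d (at least 14.1-fold, adjusted p = 0.00382) and Lilr4b (3.49, adjusted p = 0.0425), and App fell by 2.64 (adjusted p = 0.00316). From d1 BC to HE1 cells 5 of 55 rose and 1 fell, beside 2.05% and 1.51%, and no slide held both groups. Syk, the kinase that binds the adaptors, rose by 3.04 (adjusted p = 0.0246, limma), Inpp5d rose by 3.04 (adjusted p = 0.0274), Cd200r1 was at least 6.41-fold higher (adjusted p = 0.0429), Lilr4b was at least 2.95-fold higher (adjusted p = 0.0483), and Prkcd fell by 2.34 (adjusted p = 0.0424). From FLK1+ to d1 BC 5 of 50 rose and 0 fell, beside 2.94% and 1.98%, with the Cd47-binding protein Thbs1 at 8.73 (adjusted p = 1.16e-05, limma), the phosphoinositide kinase Pik3cd at 3.16 (adjusted p = 0.0118) and Clu at 2.23 (adjusted p = 0.00831). From d1 BC to SM and from HE2 to HP cells 0 of 53 and 0 of 69 passed in limma.

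Values with DOX are given without tests, since the genes were chosen on them. Lilrb4a and Tyrobp were picked for being lower, and genes not detected with DOX entered through the untreated arrays, so the shares of all genes tested that stand beside the counts are given for scale and nothing is read from them. The median over all genes tested itself differed by log2 0.25 in HP, 0.17 in HE2 and 0.09 in both HE1 and SM cells, by 0.13 in d1 BC and by -0.04 after 5 h.

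In HP cells all 9 genes were lower with DOX and no DOX array reached an untreated array, beside 12.5% of 25099 genes tested. Their median difference was log2 -1.65. Fcgr2b and Trem2 were not detected on either DOX array and entered through the untreated arrays alone.

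Among the inhibitory receptors, Pirb was at 2.03 and 2.26 in untreated and -1.14 and -1.71 in DOX-treated HP cells, a difference of -3.56. Lilrb4a was at 4.42 and 4.68 untreated and 1.77 and 0.82 with DOX, a difference of -3.25, and its second probe differed by -3.67. The DOX arrays of HP cells thus lay below both untreated HE2 arrays and overlapped the DOX arrays of HE2 cells (1.75 and 0.83). Fcgr2b was at -2.39 and -2.21 untreated and not detected with DOX, a level at least 4.70-fold lower on the scanner software's background. In the authors' processed values Fcgr2b differed by -1.52, which is less than that bound. Sirpa was at 3.45 and 3.38 untreated and 2.44 and 2.85 with DOX, a difference of -0.77.

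For the adaptors, Tyrobp was at 5.42 and 5.39 in untreated and 4.13 and 3.39 in DOX-treated HP cells (-1.65). Fcer1g was at 5.54 and 5.76 untreated and 4.61 and 3.96 with DOX (-1.36). Both adaptors thus stayed above every SM and HE1 array. For the activating receptors, Fcgr3 was at 1.73 and -0.82 untreated and -1.70 and -4.07 with DOX (-3.34), and within the slides, where each untreated array has its own DOX array, it differed by -3.43 and -3.25. Fcgr1 was at -2.91 and -3.32 untreated and -3.52 and -4.33 with DOX (-0.82). Trem2 was at least 1.83-fold lower with DOX on the scanner software's background. Within both slides each of the 9 genes was lower with DOX. With the normexp background correction the differences of Fcgr1, Trem2 and Fcgr2b shrank to -0.04, -0.08 and -0.68. In the authors' processed values Trem2 differed by -0.65. The bounds of Trem2 and Fcgr2b were thus kept neither with normexp nor in the authors' values.

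**Figure D3:**
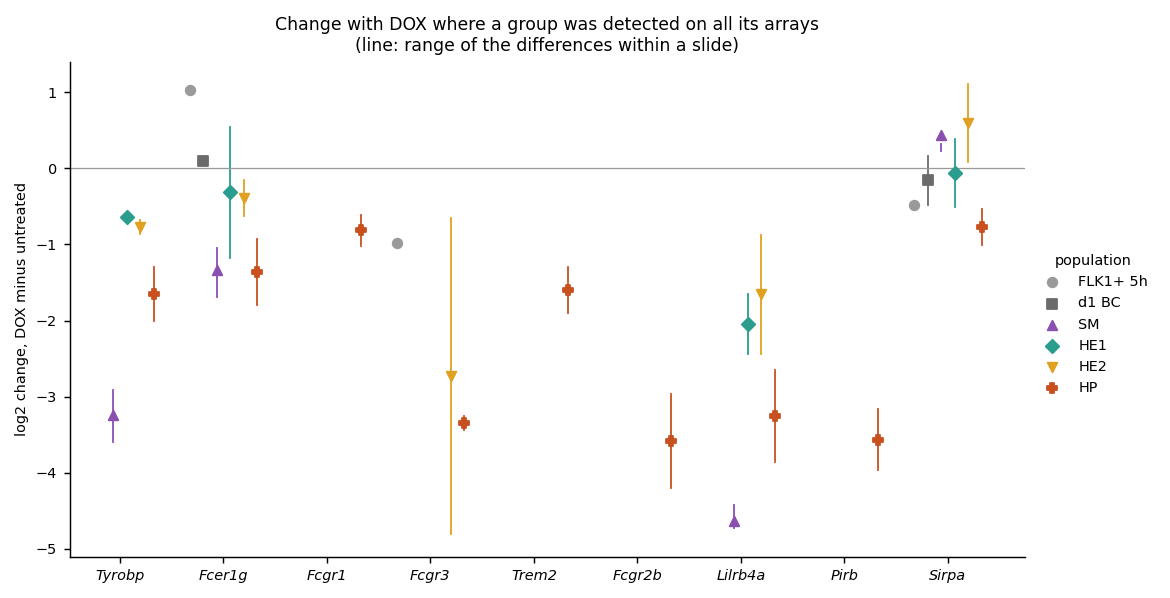
Difference in log2 level between DOX and untreated group means for each gene in each population where all arrays of 1 of the groups detected it, with a line over the differences between arrays of the same slide where 2 slides held both groups. In SM cells the mean uses a further untreated array from another slide and can lie off the line. All HP points lie below 0, with Sirpa at -0.77 and Pirb at -3.56, and points of genes not detected with DOX (Fcgr2b and Trem2 in HP, Lilrb4a in SM) have only a bound.

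In SM cells 3 of the 4 genes that could be compared were lower with DOX with no overlap between arrays, beside 6.15% of 23809 genes tested. Lilrb4a was at -2.29, -1.56 and -1.74 untreated and not detected on either DOX array, which makes it at least 7.70-fold lower on the scanner software's background. With the normexp correction and in the authors' processed values Lilrb4a differed by -1.61 and -1.83, which is less than that bound. The second probe of Lilrb4a was detected on 1 of 3 untreated and on neither DOX array. Tyrobp was at -1.20, -1.03 and -1.15 untreated, not detected on 1 DOX array and at -3.94 on the other, a difference of -3.24, against -1.77 with normexp and -1.98 in the authors' processed values. Fcer1g was at -1.26, -0.39 and -0.94 untreated and -2.96 and -1.44 with DOX (-1.33). Sirpa differed by 0.44, with overlapping arrays. Without untreated SM replicate 2, Tyrobp differed by -3.20 and Fcer1g by -1.10. Lilrb4a and Tyrobp entered through the untreated arrays alone.

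Fewer genes could be compared in the earlier populations, with 4 in HE1 and 5 in HE2 cells. In HE1 cells Lilrb4a was at -0.65 and -0.27 untreated and -3.10 and -1.92 with DOX (-2.05, or -1.06 with normexp, and -1.14 at the second probe, which was detected on 1 untreated array), the only 1 of 4 comparable genes whose arrays did not overlap, beside 8.38% of 23184 genes. Tyrobp differed there by -0.64, Fcer1g by -0.31 and Sirpa by -0.06. In HE2 cells Lilrb4a was at 2.63 and 3.26 untreated and 1.75 and 0.83 with DOX (-1.65), and Tyrobp at 3.06 and 2.90 untreated and 2.19 and 2.23 with DOX (-0.77). Tyrobp differed there by -0.31 with median scaling and by -1.22 in the authors' processed values. Fcgr3 was at -0.94 and -0.44 untreated, at -1.60 on 1 DOX array and not detected on the other (-2.73), with within-slide differences of -0.66 and, for the array not detected, -4.81. These were 3 of 5 comparable genes, beside 14.4% of 24074 genes, and Fcgr3 entered through the untreated arrays alone. Fcer1g differed by -0.39 (-0.90 with quantile normalization and -1.02 in the authors' processed values) and Sirpa by 0.59, with overlap. At 5 h 3 genes and in d1 BC 2 genes could be compared, and Sirpa at 5 h (-0.48) was the only 1 whose DOX arrays lay below the untreated arrays, beside 16.4% at 5 h and 9.62% in d1 BC. Within the only slide that held both 5 h groups Sirpa differed by -0.13, and with median scaling by -1.12. Of the 27 pairs of gene and population that could be compared, the DOX arrays lay below the untreated arrays in 17 and above them in 0, beside 11.3% lower over all genes tested in the 6 populations. In HP cells 25.6% of all genes tested lay higher, and the share higher over the 6 populations was not counted. Sirpa was higher with DOX within both slides in SM (0.32 and 0.23) and HE2 cells (1.10 and 0.079), and Fcer1g in d1 BC (0.11 and 0.094). Tyrobp was lower within both slides in HE1 cells (-0.66 and -0.63) and Fcer1g in HE2 cells (-0.63 and -0.15). In each of these cases the arrays overlapped between slides.

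No gene of the 4 signalling lists passed the test with DOX in any population (0 of 54 at 5 h, 0 of 54 in d1 BC, 0 of 54 in SM, 0 of 59 in HE1, 0 of 63 in HE2 and 0 of 69 in HP cells, limma), with 1, 1, 4, 3, 8 and 13 genes at an unadjusted p under 0.05, and in HP cells 0.0398% of all genes tested passed in either direction. With the authors' processed values 9 genes of the lists passed in HP cells, all lower, among them Btk, Card9, Lilr4b and Ptprc. In HP cells the list medians were below the 0.25 of all genes tested. They were log2 -0.90 for 24 kinases and activating effectors, -0.68 for 10 phosphatases and inhibitory effectors, -0.99 for 26 other Fc and paired receptors and -0.44 for 9 ligands. The DOX arrays of 16 kinases and activating effectors lay below the untreated arrays and those of 0 lay above, beside 12.5% and 25.6% of genes tested. For the phosphatases the counts were 6 and 0, for the other receptors 14 and 2 and for the ligands 3 and 2. The lists were chosen with earlier results of these data known. Genes not detected with DOX entered through the untreated arrays alone, and their number is not given here. Nothing is therefore read from these medians and counts.

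The genes named here were chosen after their values were seen. Ptprc, the CD45 phosphatase of blood cells, was at -0.28 in untreated and -3.49 in DOX-treated HP cells (log2 -3.21, adjusted p = 0.21, limma), and passed with the slide as a fixed block (adjusted p = 0.0436) or a random block (adjusted p = 0.0259). Lilr4b was at 0.85 and -2.81 (-3.66, adjusted p = 0.25, limma). Its sequence is close to that of Lilrb4a, and near-identical relatives also exist for Pirb and Sirpa. Whether these probes also take up signal of such relatives was not tested.

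**Figure D4:**
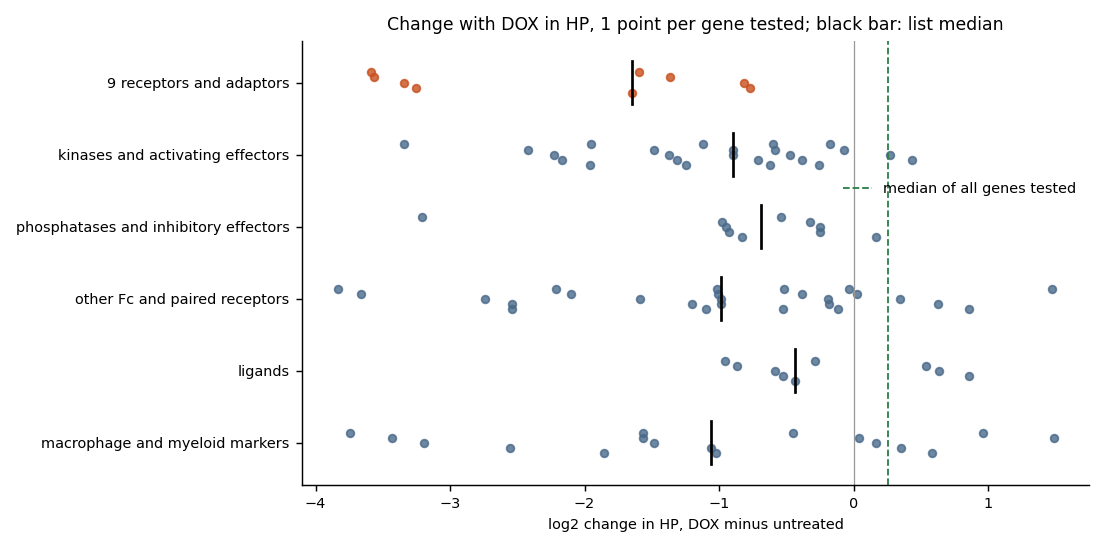
Difference in log2 level between DOX and untreated HP cells for each tested gene of the 9 receptors and adaptors, the 4 signalling lists and the macrophage and myeloid markers, with black bars at the list medians and a dashed line at the median of all genes tested (0.25). All 9 receptors and adaptors lie below 0, and the medians of the other lists run from -1.06 to -0.44. Genes not detected with DOX entered through the untreated arrays alone.

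Markers of macrophages and other myeloid cells were set beside these values. In bulk samples fewer cells of a type and less RNA per cell cannot be told apart. Of 19 such markers with a probe, 17 could be tested in HP cells with DOX and 0 passed in limma, with 5 at an unadjusted p under 0.05. Their median difference was log2 -1.06, and the DOX arrays lay below the untreated arrays for 11 and above for 3, beside 12.5% and 25.6% of all genes tested. C1qc, Ctss and Aif1 entered through the untreated arrays alone, so nothing is read from the median or the counts. Spi1, which encodes PU.1, differed by -3.19, Cx3cr1 by -3.75 and Cd14 by -3.43, whereas Itgam differed by 1.49 and Mpo by 0.04. In HE1 cells the marker median was 0.07, with 1 of 12 markers lower and 3 higher without overlap, beside 8.38% of all genes tested that were lower. In HE2 cells the marker median was -0.40, with 5 of 15 lower and 3 higher without overlap, beside 14.4% of all genes tested that were lower. The shares of all genes that were higher in HE1 and HE2 cells were not counted. In HE2 cells Csf1r had mean levels of 3.07 untreated and 0.70 with DOX and Cd14 of -1.25 and -3.84. The summed signal of the list, in multiples of the 75th percentile, was 162 to 189 in untreated and 128 to 183 in DOX-treated HP cells, and without Mpo, a comparison added after the data were seen, 86.2 to 96.4 and 39.7 to 98.9. C1qa and Cybb were detected in neither, nor C1qc, Ctss and Aif1 with DOX. In SM cells the summed signal was 23.2 to 42.2 untreated and 13.9 to 18.4 with DOX, and Spi1, C1qc and Cybb were detected in neither. There 4 of 12 tested markers lay lower on every DOX array, beside 6.15% of all genes tested. From untreated SM to HP cells 8 of 17 markers rose and 1 fell, beside 3.31% and 6.48% of all genes tested, and 2 of the 8 were tested through the HP arrays alone. From untreated HE1 to HE2 cells 3 of 14 rose and 0 fell, beside 0.568% and 2.08%, with a median of log2 1.81 against 0.04. Of these 3, 1 was tested through the HE2 arrays alone. The part of these markers in the results above was not tested.

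Mast cell markers had a summed signal of 6.35 to 7.12 in untreated and 8.53 to 9.63 in DOX-treated HP cells and Cma1 detected in neither. The summed signal of megakaryocyte markers was 38.6 to 43.7 and 45.0 to 46.6, within which Itga2b had a mean level of 3.13 and 1.52. That of lymphoid markers was 9.51 to 13.9 and 20.6 to 23.1, within which Cd3e had a mean level of 2.47 and 3.92, and Ncr1, a marker of natural killer cells, was detected in neither.

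The genes whose 13 group means were most like those of each member were sought among 16361 named genes. For Tyrobp these were Btk (Pearson r 0.98), Rac2 (0.98) and Mctp1 (0.98), and for Fcer1g Atp2a3 (0.99), Cst7 (0.99) and Clec4d (0.99). For Lilrb4a they were Tespa1 (0.99), Lcp2 (0.97) and Apbb1ip (0.97), for Pirb Bcl2a1d (0.99), Rgs1 (0.99) and Cd96 (0.99), and for Sirpa Man2b1 (0.98), Tbc1d10c (0.97) and Rab3d (0.96). Fcgr2b was closest to Dcstamp (0.96), Rnase6 (0.95) and Il1b (0.95), and Trem2 to Gpr65 (0.98), P2ry13 (0.97) and Il1b (0.97). For Fcgr3 they were Psd4 (0.95), Smim24 (0.93) and Cebpa (0.93), and for Fcgr1 Slc7a13 (0.95), Irf7 (0.92) and Hhla1 (0.92). Values below background enter these means, most of all for Fcgr1, Fcgr2b and Trem2.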

How the data were processed

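Microarray gene expression was measured by the authors on 27 one-colour Agilent mouse arrays with 62976 spots. The deposited intensity values are the processed signals of Agilent Feature Extraction (10.7.3.1 per the file headers, 10.7.1.1 per the labels), background-subtracted by that software, and the authors' value table holds log2 values with near-identical quartiles on all arrays, which served as an alternative. The authors used limma, and the background correction behind that table is not given in the sources used here. No deposited column was left unmapped.

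Outlier spots were removed, except where a probe had no others, spots of a probe were averaged on the log2 scale and the 75th percentile of each array over 55681 probes was subtracted. Symbols were found for 26582 probes through RefSeq accessions, and the probe with the highest mean was kept per gene. limma 3.58.1 (R 4.3.3) was fitted to 13 group means over all 27 arrays (14 residual degrees of freedom), with moderated variances from the 28318 genes well above background on all arrays of a group, and Benjamini-Hochberg adjustment. On simulated data of the HE2 to HP comparison with 200 changed genes among 21052, 76 of 100 changes of log2 4 and 14 of 100 of log2 2 were found, with 6 false calls. No spot was saturated. The number of arrays limits the precision.

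The arrays lay on 5 slides. HE1, HE2 and HP replicates 1 lay on 1 slide and replicates 2 on another, so that by layout the replicate number pairs those samples through the slide. The deviations of samples on the same slides correlated in all 18 pairs of groups (r 0.25 to 0.83, median 0.53). In the 48 other pairs of groups r ran from -0.60 to 0.72 with a median of -0.03. Marker lists of smooth muscle, blood progenitor, macrophage and myeloid, mast, megakaryocyte and lymphoid cells were used here. The 9 genes and all lists were chosen with earlier results of these data known. Named besides the 9 were signalling genes called with DOX (there were none), the 2 called genes of each list with the largest change up and down in each untreated step, and the 3 genes most like each member. Some genes that this rule names are not reported here. Alternatives covered background correction, normalization, filters, probes, blocks, variance models and leaving out each array.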

Additional observations from a re-analysis of the deposited data

How the results depend on the processing

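The settings below changed 1 choice at a time, except the authors' processed values, which differ in background handling and normalization together. Of the 7 genes tested over untreated steps, FLK1+ to d1 BC gave 1 call in place of 0 with quantile normalization, the authors' processed values, the mean of all probes, the replicate block, the slide as a fixed or random block, the mean-variance trend and array quality weights. d1 BC to HE1 gave 0 in place of 1 with median scaling, the slide as a fixed block and the 2 groups alone. HE1 to HE2 gave 2 in place of 1 with quantile normalization, the authors' values and the random slide block, and 0 with the 2 groups alone. HE2 to HP gave 1 in place of 0 with normexp, the replicate block and both slide blocks, and 2 with quantile normalization, median scaling and the authors' values. SM to HP gave 2 in place of 6 where detection was required in both groups. Genes of the signalling lists called with DOX numbered 1 in place of 0 with normexp, quantile normalization, both slide blocks and array quality weights, 3 with median scaling and 9 with the authors' values. DOX arrays lay below untreated arrays in 12 in place of 25 of all 54 pairs of gene and population, undetected ones included, where detection was required in both groups. The causes were not tested, except that requiring detection in both groups leaves fewer genes to test.

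Leaving out each array of the compared groups gave 0 to 0 calls for FLK1+ to d1 BC, d1 BC to SM and d1 BC to HE1, 1 to 1 for HE1 to HE2, 0 to 1 for HE2 to HP, 4 to 6 for SM to HP, 0 to 0 for signalling genes with DOX and 25 to 29 pairs below untreated. Among values that missed the threshold, the direction turned for Sirpa from HE1 to HE2 without HE2 untreated replicate 2 (-0.54, up to 0.90 without another array), for Fcgr1 from HE2 to HP with normexp (-0.10) and without HE2 untreated replicate 2 (-0.31, up to 1.43 without another array), for Fcgr3 from HE2 to HP without HP untreated replicate 1 (-0.13, up to 2.42 without another array) and for Trem2 from HE2 to HP with normexp (-0.050). Dim signal limits Fcgr1, Fcgr2b and Trem2 most, detected on 7, 3 and 3 of 27 arrays.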
